A study of Mus musculus with 10 samples.

Results

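UDP-glucuronosyltransferases (Ugt genes) and cytosolic sulfotransferases (Sult genes) encode the conjugating enzymes described here in the mouse distal ileum, the end of the small intestine, where conjugated bile acids are taken up. Genes were taken by symbol from the annotation in the authors' table: every Ugt1a, Ugt2a, Ugt2b and Ugt3a gene and every Sult gene, which gave 42 of 42989 genes. These were 20 Ugt genes (9 Ugt1a, 2 Ugt2a, 7 Ugt2b and 2 Ugt3a) and 22 Sult genes, 3 of them with pseudogene symbols. All 42 had at least 1 read in some library, and 20 were abundant enough to test, at 10 or more normalized counts in at least 5 of the 10 libraries. The tested genes were 6 Ugt1a, 1 Ugt2a, 4 Ugt2b and 9 Sult genes.

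The samples came from 10 wild-type male mice of the strain labelled DIO C57BL/6J, that is, with diet-induced obesity, so both groups share the obese state and no lean mice enter the comparison. The mice were 10 weeks old when gavage began and were killed after 4 weeks. The treated group of 5 received taurodeoxycholic acid (TDCA), a secondary bile acid conjugated to taurine, at 10 mg per kg body weight, and the control group of 5 received the same volume of water (0 mg per kg). The design text calls the samples biological replicates, here named water 1 to 5 and TDCA 1 to 5. Sequencing covered total RNA from frozen pieces of ileum, after removal of ribosomal RNA. The libraries held 27349003 to 44342245 reads on genes, and the 42 genes together took 0.0516% of them in TDCA 1, the lowest share, and 0.125% in water 1, the highest.

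Ugt enzymes sit in the membrane of the endoplasmic reticulum and attach glucuronic acid, from UDP-glucuronic acid, to bilirubin, steroids, bile acids, phenols and drugs. Sult enzymes are cytosolic and attach a sulfonate group, from PAPS, to phenols, steroids and bile acids. Both reactions make lipophilic compounds more soluble and ready for export, and enterocytes are among the cells that carry them out before a compound reaches the liver. The Ugt1a genes are a special case: each has its own first exon, and all are spliced to the same later exons.

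The 4 tested Ugt2b genes, Ugt2b34, Ugt2b35, Ugt2b36 and Ugt2b5, lie on chromosome 5 in a run of related genes that starts at Ugt2b34 and ends at the estrogen sulfotransferase gene Sult1e1. The run holds 27 RefSeq genes, 13 of them protein coding, and 12 of those are conjugating enzymes: Ugt2b34, Ugt2b1, Ugt2b35, Ugt2b36, Ugt2b5, Ugt2b37, Ugt2a3, Ugt2b38, Ugt2a1, Sult1b1, Sult1d1 and Sult1e1, in that order. Of these, 8 were tested. Over the longest open reading frame, Ugt2b35 was 88.3% identical in bases to Ugt2b36 and 87.7% identical to Ugt2b5, and only 71.9% identical to Ugt2b34 and 66.9% identical to Ugt2a3. The 250 bases before the start of each of the 4 Ugt2b genes, from RefSeq on GRCm38.p6, are shown because the levels of these genes are compared with each other below and because a short run of letters recurs close to each start. Each is written 5′ to 3′ on the gene's strand. Capitals mark the run GTTANANTTTAAC in all 4, and AGGTCA, the core letters of many nuclear receptor sites, in Ugt2b35, Ugt2b36 and Ugt2b5. The promoter of Ugt2b35 is chr5:87000610-87000859 on the plus strand, that of Ugt2b36 is chr5:87092556-87092805 on the minus strand, that of Ugt2b5 is chr5:87140341-87140590 on the minus strand and that of Ugt2b34 is chr5:86906938-86907187 on the minus strand.
Ugt2b35: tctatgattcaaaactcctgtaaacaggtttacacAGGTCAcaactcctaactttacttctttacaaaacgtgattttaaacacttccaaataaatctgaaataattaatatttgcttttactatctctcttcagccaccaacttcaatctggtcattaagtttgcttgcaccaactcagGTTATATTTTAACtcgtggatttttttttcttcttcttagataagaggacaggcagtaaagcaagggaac
Ugt2b36: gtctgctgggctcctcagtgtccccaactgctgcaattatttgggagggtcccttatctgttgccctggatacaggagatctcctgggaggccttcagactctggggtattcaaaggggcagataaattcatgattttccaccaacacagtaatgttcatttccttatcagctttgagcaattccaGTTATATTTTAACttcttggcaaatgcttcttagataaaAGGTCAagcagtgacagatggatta
Ugt2b5: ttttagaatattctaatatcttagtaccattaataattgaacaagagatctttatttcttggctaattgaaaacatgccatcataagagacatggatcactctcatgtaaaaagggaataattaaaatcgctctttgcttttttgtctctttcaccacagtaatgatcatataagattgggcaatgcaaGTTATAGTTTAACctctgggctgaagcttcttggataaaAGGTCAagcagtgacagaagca
Ugt2b34: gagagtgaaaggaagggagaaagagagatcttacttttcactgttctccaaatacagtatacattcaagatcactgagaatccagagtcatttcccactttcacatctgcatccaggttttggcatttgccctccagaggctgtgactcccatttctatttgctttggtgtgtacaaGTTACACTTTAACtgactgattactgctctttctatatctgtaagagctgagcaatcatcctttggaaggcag

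Aligned end to end, the Ugt2b35 promoter was 50.6% identical to that of Ugt2b36, 55.4% to that of Ugt2b5 and 48.7% to that of Ugt2b34, far less than the reading frames. The run reads GTTATATTTTAAC in Ugt2b35, 70 bases before the start, and the same 13 letters 64 bases before the start of Ugt2b36. It reads GTTATAGTTTAAC in Ugt2b5, 61 bases before the start, and GTTACACTTTAAC in Ugt2b34, 73 bases before it. Of all 13-base words, this one has the most bases in common to the 4 promoters, 11, and it was found by comparing them, so its presence in them is no result. Searched on both strands, it occurred in 10 of 32851 mouse promoters of this length (0.0304%). These included those of Ugt2b37, 78 bases before the start, and Ugt2b38, 64 bases before it, which are close relatives with few reads in this tissue. Among the 20 promoters of 18 tested conjugating enzymes it occurred in no other. AGGTCA is far more common, in 14.0% of all promoters, and it occurred in 6 of those 20, those of Ugt2b35, Ugt2b36, Ugt2b5, Ugt1a7c, Sult1b1 and Sult1e1. It lay 215 bases before the start of Ugt2b35, 25 before Ugt2b36 and 22 before Ugt2b5. Of the forms searched for the antioxidant response element, TGACNNNGC was in 10.2% of all promoters and in 0 of the 20, and TGAGNNNGC was in 14.4% of all and in those of Ugt1a7c, Ugt1a1, Sult1e1 and Sult1c2. The letters GTTAAT, part of the HNF1 motif, were in 6.43% of all promoters and in those of Ugt1a6a, Ugt1a1, Ugt2a3, Sult1d1 and Sult1a1. These are matches of letters, and binding was not measured.

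Per kilobase of annotated exon, Ugt2b34 was the most abundant Ugt gene. It stood at 2843 ± 807 normalized counts per kb in water (mean ± SD, n = 5) and at 2185 ± 536 in TDCA, and it made up 52.3% ± 7.26 of the summed per-kb level of the 11 tested Ugt genes in water and 59.1% ± 5.45 in TDCA. In water, Ugt1a1 held 15.4% of that sum, Ugt1a7c 9.65%, Ugt2a3 6.25%, Ugt2b5 6.02%, Ugt2b35 4.56% and Ugt2b36 3.99%. The order from Ugt2a3 to Ugt2b36 is loose, since neighbours among their per-kb levels in water (487, 345, 276 and 236) differ by less than the SD of Ugt2b35 alone (179). Among the 9 tested Sult genes, Sult1d1 held 48.8% and Sult1b1 38.2% of the per-kb sum in water, Sult2b1 9.57% and Sult1a1 2.23%. Ugt2b34, Sult1d1 and Sult1b1, the 3 genes with the highest per-kb levels, all lie in the chromosome 5 run. In the order of the conjugating enzymes there, genes near 0 stand between abundant ones, with Ugt2b1 before Ugt2b35 and Ugt2a1 before Sult1b1. Of the annotated exon length of Ugt2a1, 98.8% overlaps another gene on the same strand. Its low value may therefore reflect how shared reads were counted, which is not stated.

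**Figure D1:**
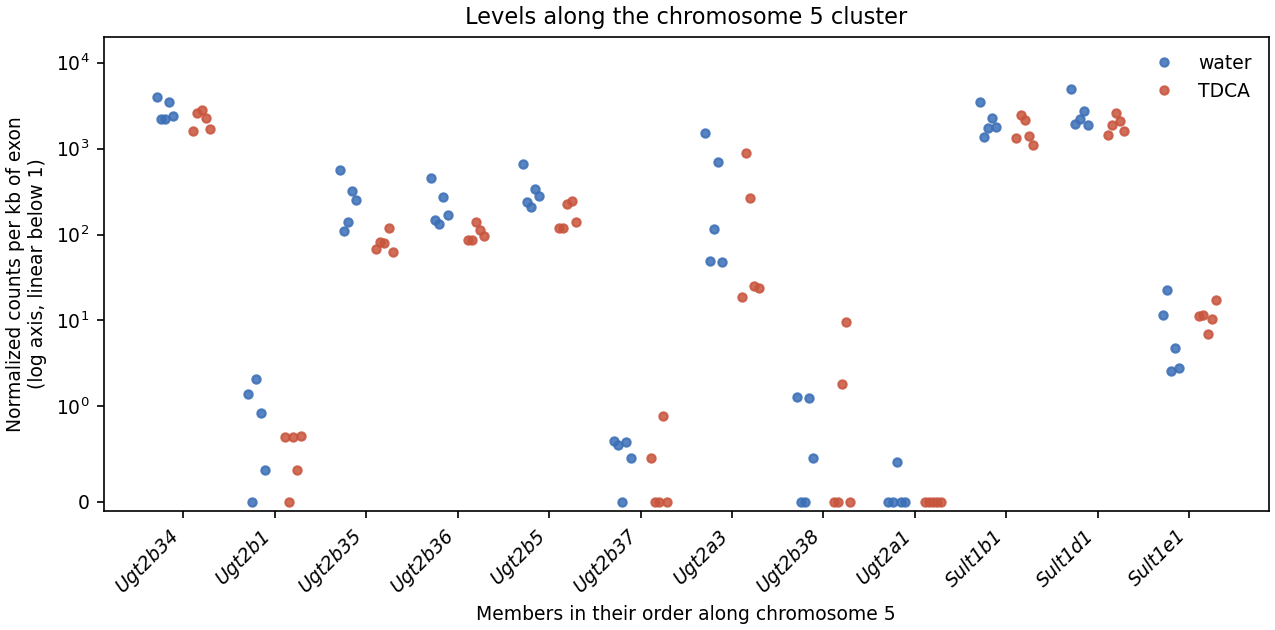
Normalized counts per kb of annotated exon for the 12 conjugating enzyme genes of the chromosome 5 run, in gene order, with 1 point per library for 5 water and 5 TDCA mice, on a log axis that is linear below 1. Ugt2b34, Sult1b1 and Sult1d1 stand highest, and Ugt2b1, Ugt2b37, Ugt2b38 and Ugt2a1 lie near 0. Of the exon length of Ugt2a1, 98.8% overlaps another gene.

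With TDCA against water, 0 of the 20 tested conjugating enzymes passed limma's test at an adjusted p under 0.05, against 0.00% of all 17507 genes tested. At an unadjusted p under 0.05, 7 of the 20 were lower with TDCA and 0 higher, where 5.01% of all genes were lower and 5.95% were higher. In limma the count of members at that limit was 4 without water 1, without water 4, without both water 1 and TDCA 5 and with a filter of 50 normalized counts, 9 without water 2, and 1 with a smooth muscle marker score in the fit. The count over all genes moved too, from 1919 with all libraries to 2558 without water 2 and 680 with the smooth muscle score. In the 4 fits named first it was 1260, 1993, 928 and 1549, in that order. With all libraries, the 7 were Ugt genes (Ugt2b35, Ugt2b36, Ugt2b5, Ugt1a2, Ugt1a5, Ugt1a6b and Ugt1a7c), and edgeR called 0 members, with 7 at an unadjusted p under 0.05 against 10.1% of all genes. The fitted log2 fold change was below 0 for 11 of 11 tested Ugt genes, with a median of -0.87, and for 5 of 9 tested Sult genes, with a median of -0.11. Over all genes tested it was below 0 for 52.1%, with a median of -0.01. For 0 of the 20 genes did the 5 TDCA values lie wholly apart from the 5 water values, against 1.40% of all genes. In the authors' deposited table, made with DESeq2, 1 of the 16 members with an adjusted p was called, Ugt2b35, against 0.181% of 13800 genes called and 0.159% called lower.

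**Figure D2:**
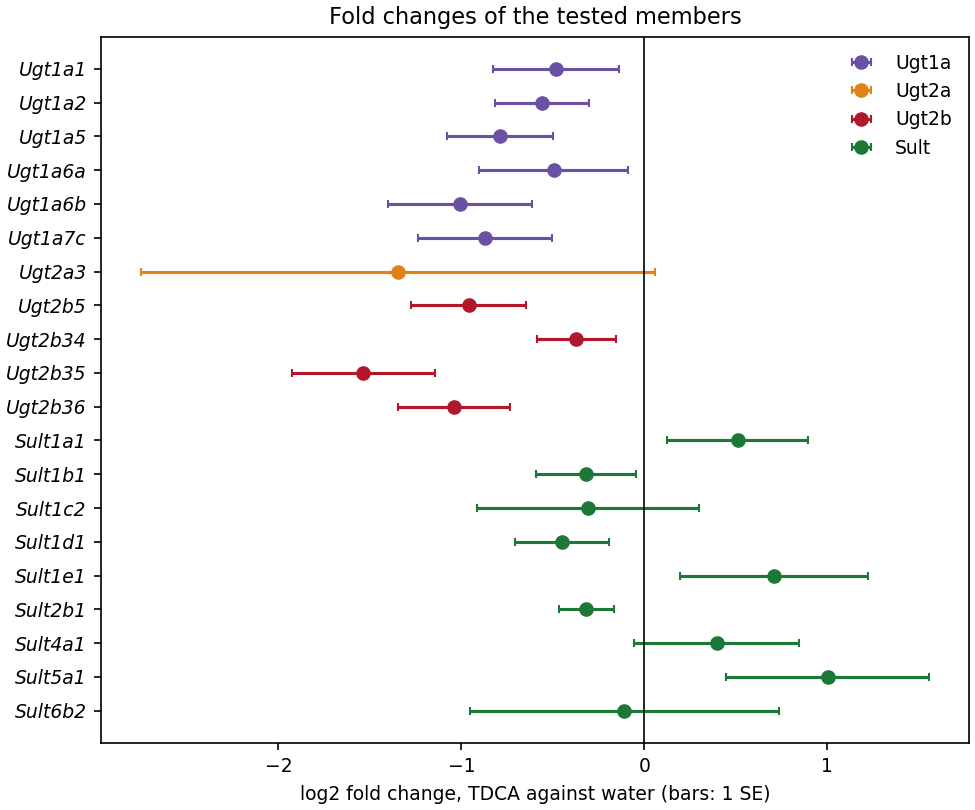
Fitted log2 fold change, TDCA relative to water, for the 20 tested genes by family, with bars of 1 standard error from limma. The 11 Ugt genes lie below 0, and the 9 Sult genes lie on both sides of it.

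Ugt2b35 (ENSMUSG00000035811) is 1 of the Ugt2b enzymes, a family that conjugates steroids and bile acids among other compounds. In water 1 to 5 it had 1875, 368, 467, 1071 and 851 normalized counts. In TDCA 1 to 5 it had 228, 275, 268, 396 and 213. The TDCA values were close together and the water values spread 5.10-fold, with only TDCA 4 above the lowest water library. The means were 926 ± 602 and 276 ± 71.9 (SD, n = 5 each), a log2 fold change of -1.53 (SE 0.39), with a limma unadjusted p of 0.00241 and an adjusted p of 0.448. The authors' deposited table gives -1.75 (SE 0.36) with an adjusted p of 0.00429. DESeq2 run here gave an adjusted p of 1.57e-05 to 0.0491 with each library left out in turn, and 0.428 without both water 1 and TDCA 5, where the log2 fold change was -1.24. The fit without both adjusted over 41999 genes and the others over 13691 to 21090, so their adjusted p values are not on a like footing.

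Ugt2b36 (ENSMUSG00000070704), the closest relative in sequence, showed a like pattern at a lower level. Its values were 945, 303, 273, 556 and 349 normalized counts in water 1 to 5, and 176, 177, 285, 232 and 199 in TDCA 1 to 5. Only TDCA 3 stood above the lowest water library. The fitted log2 fold change was -1.04 (SE 0.31, limma adjusted p = 0.448), and the authors' deposited table gives -1.18 with an adjusted p of 0.0662. DESeq2 run here gave an adjusted p of 0.0142 both without water 2 and without water 3, and of 0.0546 to 0.312 with each other library left out. Without both water 1 and TDCA 5 it gave 0.983, there adjusted over 41999 genes.

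Ugt2b5 (ENSMUSG00000054630) had 1220.4, 450, 388, 625 and 524 normalized counts in water 1 to 5 and 221, 222, 424, 459 and 259 in TDCA 1 to 5. TDCA 3 and TDCA 4 reached into the water range, and water 1 stood well above the other 4. The log2 fold change was -0.96 (SE 0.31, limma adjusted p = 0.448). Of the 75-base words in its reading frame, 35.7% also occur in another of these genes, and the reading frame of Ugt2b38 is 97.0% identical. The sources used here do not say how reads that match several genes were counted, so the level of Ugt2b5 is uncertain to that extent. The share was 0% for Ugt2b35 and for Ugt2b36.

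Ugt2b34 (ENSMUSG00000029260), the most abundant of the 4, had the narrowest range over the 10 libraries. It had 16975, 9415, 9633, 14972 and 10290.2 normalized counts in water 1 to 5 and 6859, 11111, 12079.9, 9815 and 7241 in TDCA 1 to 5. Only TDCA 1 and TDCA 5 lay below every water library. The log2 fold change was -0.37 (SE 0.22, limma adjusted p = 0.533).

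**Figure D3:**
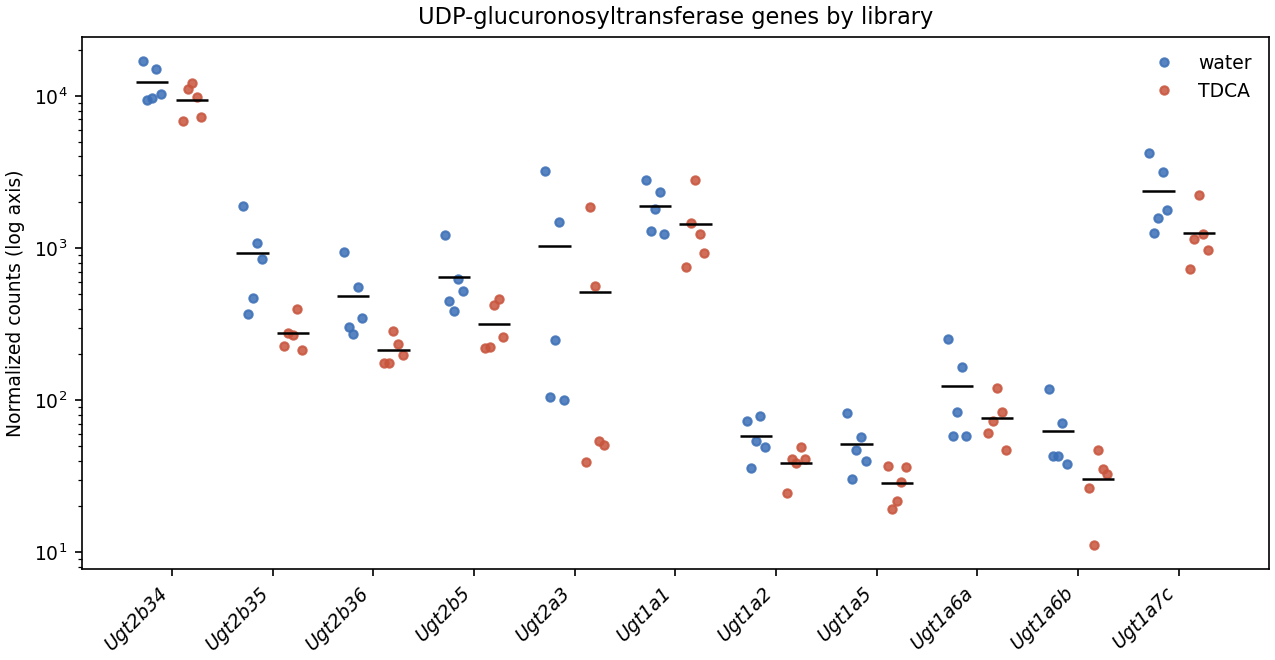
Normalized counts of the 11 tested Ugt genes on a log axis, 1 point per mouse for 5 water and 5 TDCA libraries, with a bar at each group mean. Water 1 holds the highest value of 10 of the 11 genes, and both groups of Ugt2a3 span more than a factor of 30.

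The question of whether Ugt2b35 differed from its relatives was put to the ratio of genes within each library, which a scaling factor per library cannot move. The log2 ratio of Ugt2b35 to Ugt2b34 averaged -3.92 ± 0.60 in water and -5.09 ± 0.34 in TDCA (SD, n = 5 each). That is a difference of -1.16 (SE 0.31), with 4 of 5 TDCA libraries below the lowest water library and a two-sided exact permutation p of 0.0159. The smallest p that 5 against 5 libraries allow is 0.00794, and adjusted over the 4 pairs compared this p is 0.0635, so the difference did not pass. Against Ugt2b36 the log2 ratio was 0.85 ± 0.37 in water and 0.36 ± 0.36 in TDCA, a difference of -0.50 (SE 0.23, exact permutation p = 0.0635, adjusted 0.106). Against Ugt2b5 it was 0.41 ± 0.44 and -0.16 ± 0.36, a difference of -0.58 (SE 0.25, exact permutation p = 0.0794, adjusted 0.106). Against Ugt2a3 it was 0.91 ± 1.60 and 0.72 ± 2.49, a difference of -0.19 (SE 1.32, exact permutation p = 0.865 before and after adjustment). All 4 differences were below 0 and none passed, and Ugt2b35 was singled out with its own fold change already known. Leaving out water 2 took the adjusted p to 0.0317 for Ugt2b34 and Ugt2b36 and to 0.0423 for Ugt2b5, with differences of -1.35, -0.64 and -0.75.

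**Figure D4:**
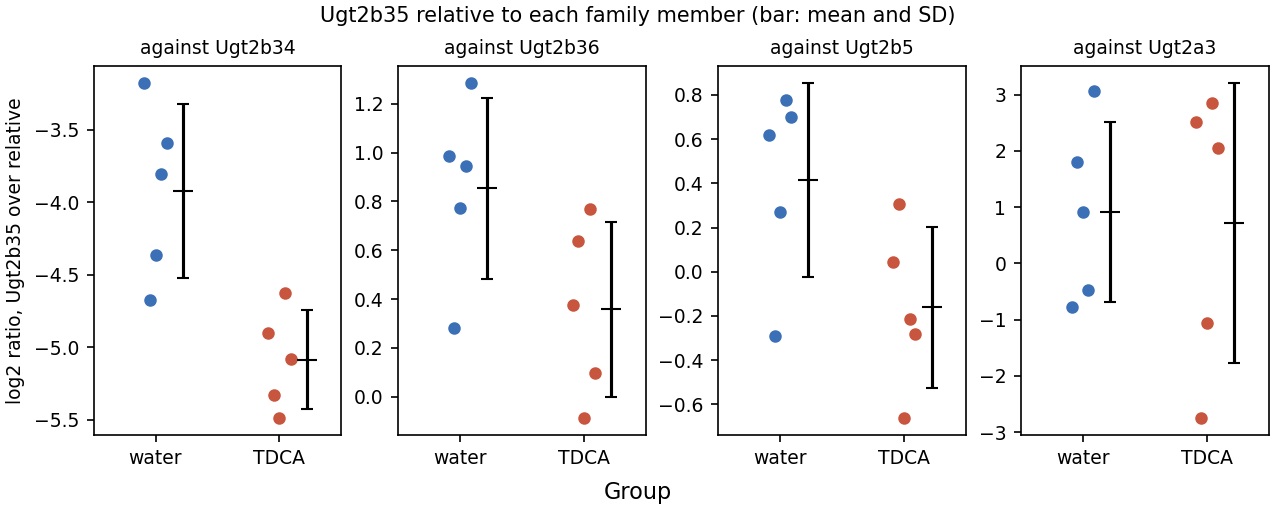
Log2 ratio of the Ugt2b35 normalized count to that of Ugt2b34, Ugt2b36, Ugt2b5 and Ugt2a3 in each library, for 5 water and 5 TDCA mice, with the mean and SD of each group. The groups overlap for every relative, least so for Ugt2b34.

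Pooled over the groups, Ugt2b35 varied around its group means with the other tested Ugt2b genes from mouse to mouse, and with some members of other families. It spanned 5.10-fold in water and 1.86-fold in TDCA, so water weighs more in the correlations below. Each group alone was not tested. After each group's mean was taken out, Ugt2b35 correlated over the 10 libraries with Ugt2b36 (Pearson r = 0.86, exact permutation p = 0.0143), with Ugt2b5 (r = 0.82, exact permutation p = 0.00764) and with Ugt2b34 (r = 0.76, exact permutation p = 0.00917). Libraries were permuted within each group. Adjusted over the 4 relations, these p values are 0.0191, 0.0183 and 0.0183. Spearman's rho was 0.71 (exact permutation p = 0.0432), 0.77 (0.0189) and 0.71 (0.0217) for the same genes. Without water 1 and water 2, the libraries farthest from the median of Ugt2b35, r was 0.69, 0.72 and 0.63. With Ugt2a3, r was 0.54 (exact permutation p = 0.125, before and after adjustment), rho was 0.41 (exact permutation p = 0.286) and r without water 1 and water 2 was 0.22. Outside these families, r with Ugt2b35 was 0.79 for Sult6b2, 0.78 for Sult1d1 and 0.77 for both Ugt1a6a and Ugt1a7c. It was below 0 for Sult1c2, Sult1e1, Sult1a1, Sult5a1 and Sult4a1, the last at -0.62. The covariation was thus not particular to Ugt2b genes, and these further values were not tested.

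Across all 10 libraries, the 5 genes whose log2 level was most like that of Ugt2b35, among 12099 other genes with a full symbol that averaged 50 normalized counts or more, were Gstm3, Cbr1, Prdx1, Tma7 and Gstp2. Gstm3 and Gstp2 encode glutathione transferases, Cbr1 a carbonyl reductase, Prdx1 a peroxiredoxin and Tma7 a small protein tied to translation. Pearson's r with Ugt2b35 was 0.975, 0.973, 0.963, 0.957 and 0.954 in that order, and 0.945, 0.933, 0.921, 0.889 and 0.883 after the group means were taken out. Since they were picked as the nearest of 12099 genes, these values describe the likeness and test nothing. Cbr1 averaged 6040 ± 2799 normalized counts in water and 2313 ± 676 in TDCA (SD, n = 5 each), and Prdx1 11199 ± 3449 and 7160 ± 810. Of the members, Ugt2b36 was nearest to Ugt2b35 (r = 0.935, with 11 genes nearer), followed by Ugt2b5 (r = 0.908, with 26 nearer) and Ugt1a7c (r = 0.852, with 94 nearer). At the other end stood Sult4a1 (r = -0.583) and Sult5a1 (r = -0.604).

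Ugt2a3 (ENSMUSG00000035780), whose human counterpart conjugates bile acids, varied more between mice of 1 group than any other tested member. In water 1 to 5 it had 3217, 104, 247, 1489 and 101 normalized counts, a 32.0-fold range. In TDCA 1 to 5 it had 39.4, 1857, 563, 54.0 and 50.6, a 47.2-fold range. The high libraries were water 1, water 4 and TDCA 2, and both groups held high and low mice. Among 13206 genes that averaged 50 normalized counts or more, 39 had a wider range in water and 37 a wider range in TDCA. Not counted in these are 7 genes in water and 1 in TDCA with a 0 in a library, for which no ratio exists. The median gene spanned 1.51-fold in each group. The log2 fold change of -1.35 has a standard error of 1.41 (limma adjusted p = 0.737). At this spread a difference was not detectable with 5 mice per group.

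The Ugt1a genes lie on chromosome 1, and 6 of the 9 were tested. Ugt1a1 (ENSMUSG00000089960), the bilirubin-conjugating enzyme, had 2796, 1294, 1798, 2327 and 1232 normalized counts in water 1 to 5 and 747, 1470.3, 2786, 1229.7 and 927 in TDCA 1 to 5. The highest values of the groups, in water 1 and TDCA 3, were about equal, and the log2 fold change was -0.48 (SE 0.35, limma adjusted p = 0.607). Ugt1a7c (ENSMUSG00000090124) had 4184, 1252, 1584, 3143 and 1767 in water and 733, 1151, 2226, 1243 and 967 in TDCA. All TDCA libraries except TDCA 3 lay below the lowest water library, and the log2 fold change was -0.87 (SE 0.36, limma adjusted p = 0.449). Ugt1a6a and Ugt1a6b, which conjugate planar phenols and have 98.4% identical reading frames, averaged 123 ± 83.8 and 62.6 ± 34.0 in water and 76.9 ± 27.8 and 30.5 ± 13.2 in TDCA. Ugt1a5 averaged 51.5 ± 20.1 in water and 28.7 ± 8.03 in TDCA, and Ugt1a2 averaged 58.2 ± 17.7 and 38.7 ± 8.85 (SD, n = 5 throughout). The median log2 fold change of the 6 genes was -0.67, their values ran from -1.01 for Ugt1a6b to -0.48 for Ugt1a1, and none passed.

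These 6 values may not be independent of each other. Between 50.3% and 60.6% of the annotated exon length of each tested Ugt1a gene overlaps another Ugt1a gene, and how such reads were counted is not stated. The untested Ugt1a10 and Ugt1a8, with 58.1% and 59.2% of their exon length shared, had 2 and 14 reads over all libraries. Ugt1a1 had 16488 and Ugt1a7c had 17796. Whether reads of the shared exons were left out or assigned to single genes was not tested. The level of each gene, and a difference between 2 of them, is therefore uncertain.

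Of the sulfotransferases, Sult1d1 (ENSMUSG00000029273), which acts on catechols and other phenols, and Sult1b1 (ENSMUSG00000029269), which acts on phenols and thyroid hormones, were the abundant ones. Sult1d1 had 12219.7, 4707, 5448, 6789 and 4682 normalized counts in water 1 to 5 and 3562, 4615, 6331, 5111 and 3934 in TDCA 1 to 5. TDCA 1, TDCA 2 and TDCA 5 lay below every water library, TDCA 3 and TDCA 4 lay among them, and water 1 stood far above the rest. The log2 fold change was -0.45 (SE 0.26, limma adjusted p = 0.527). Sult1b1 had 9754, 3764, 4820, 6261 and 4891 in water and 3728, 6857, 5948, 3907 and 3024 in TDCA. TDCA 2 and TDCA 3 each stood above at least 3 of the 5 water libraries, and the log2 fold change was -0.32 (SE 0.28, limma adjusted p = 0.673). Without both water 1 and TDCA 5 it was 0.02, so its direction rests on these 2 libraries.

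Sult2b1 (ENSMUSG00000003271), the cholesterol sulfotransferase, was the steadiest gene of both families in water, at 2136, 1805, 1881, 1837 and 2004 normalized counts. In TDCA 1 to 5 it had 1833, 1716, 1726, 1602 and 1022. Only TDCA 1 reached into the water range, at its lower end, and TDCA 5 stood far below the rest. The log2 fold change was -0.32 (SE 0.15, limma adjusted p = 0.462).

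Sult1a1 (ENSMUSG00000030711), the general phenol sulfotransferase, was the only member with a mean above 100 normalized counts and a fitted change above 0. It had 171, 252.3, 198, 99.2 and 108 in water 1 to 5 and 154, 118, 453, 361 and 180.1 in TDCA 1 to 5. TDCA 3 and TDCA 4 stood above every water library and the other 3 lay among them, with a log2 fold change of 0.51 (SE 0.38, limma adjusted p = 0.627). The other 5 tested Sult genes were low. Sult6b2 averaged 58.1 ± 58.5 in water and 55.1 ± 52.3 in TDCA, Sult4a1, a gene best known from brain, 40.0 ± 22.4 and 48.3 ± 20.7, and Sult1c2 23.2 ± 10.0 and 23.6 ± 17.0. Sult1e1, the estrogen sulfotransferase, averaged 11.02 ± 10.5 and 14.2 ± 4.53, and Sult5a1 5.71 ± 4.67 and 11.6 ± 6.51 (SD, n = 5 throughout). Their log2 fold changes ran from -0.31 for Sult1c2 to 1.00 for Sult5a1, with limma adjusted p from 0.517 to 0.971.

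The 22 untested genes were at or near the limit of detection. Where a library held no read of a gene, up to 3 reads are allowed for, which equal 2.57 to 3.60 normalized counts depending on the library. In 20 of the 22, no library reached 10 normalized counts. The other two were Ugt2b38, with 18.0 in TDCA 4 as its highest value and 30 reads over all 10 libraries, and Ugt3a2, with 10.8 in water 1 as its highest and 19 reads. Ugt1a9 had 38 reads, Ugt2b1 had 18 and Ugt1a8 had 14 over the 10 libraries. The Sult2a genes, hydroxysteroid and bile acid sulfotransferases of liver, had between 1 and 6 reads each, with 6 for Sult2a8, a bile acid sulfotransferase of mouse liver. Most of the exon length of Ugt2a1, Ugt1a8, Ugt1a9 and Ugt1a10 overlaps another gene, so their few reads may also reflect how shared reads were counted. A change in the 22 genes was not detectable at this depth.

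Water 1 held the highest value of 14 of the 20 tested genes and of 10 of the 11 Ugt genes, with Ugt1a2 highest in water 4. TDCA 1 held the lowest value of 8 of the 20 and TDCA 5 that of 4. The median over the 11 Ugt genes of the log2 level, centred per gene, was 1.52 in water 1, 0.81 in water 4 and between -0.27 and 0.10 in the other 3 water libraries. It was 0.21 in TDCA 3, and -0.21, -0.47, -0.70 and -0.88 in TDCA 4, TDCA 2, TDCA 5 and TDCA 1. TDCA 3 thus stood above 3 of the 5 water libraries. Without both water 1 and TDCA 5, the Ugt2b35 log2 fold change was -1.14 with a limma adjusted p of 0.831.

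**Figure D5:**
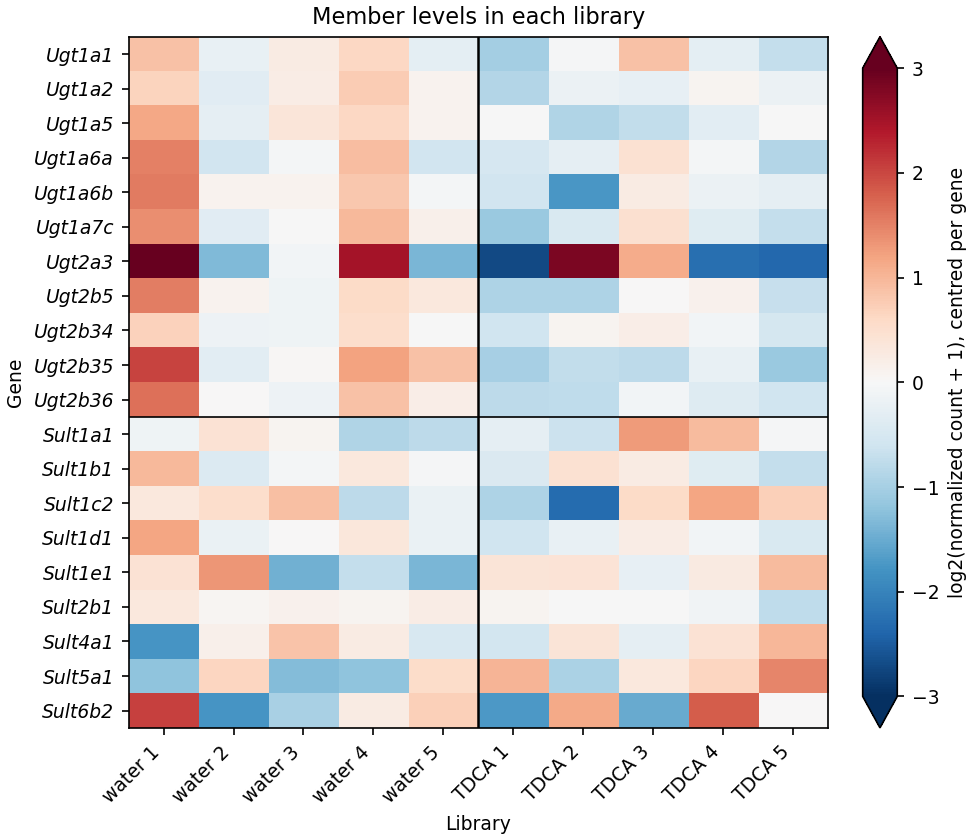
Log2(normalized count + 1) of the 20 tested genes, centred per gene, in 5 water and 5 TDCA libraries, with colour giving the distance from the gene's mean on the log2 scale. Water 1 and water 4 are above the mean for most Ugt genes, and TDCA 1 and TDCA 5 are below it.

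Levels of cell type markers also differed between the groups, and limma called none of them. Over all genes tested, the fitted change was below 0 for 52.1%. At an unadjusted p under 0.05 in limma, 5.01% were lower and 5.95% higher. Groups did not overlap for 1.40%, and the authors' deposited table called 0.181% of the genes with an adjusted p. Of 15 enterocyte markers, all tested, 13 had lower means with TDCA (median log2 fold change -0.40), and their summed level ran from 958423 to 1361335 normalized counts in water and from 507601 in TDCA 5 to 1140124 in TDCA 2. None of these markers, which include the ileal bile acid genes Fabp6 and Slc10a2, was at 0. Of 11 smooth muscle markers, 11 had higher means with TDCA (median 0.69), 8 of them at an unadjusted p under 0.05 in limma. Their sum ran from 75529 in water 1 to 221734 in water 2 and from 168449 to 294563 in TDCA, with none at 0 and the highest value in TDCA 5. Of 10 markers of enteric neurons and glia, 9 had higher means (median 0.44), with sums of 651 to 1198 in water and 954 to 1481 in TDCA. Stromal markers had higher means in 7 of 7 (median 0.37). Lower means with TDCA were found for 8 of 8 Paneth cell markers (median -0.66), 3 of them with groups that did not overlap and 3 called in the authors' deposited table. Lower means were also found for 8 of 8 markers of cycling crypt cells (median -0.46), 6 of them at an unadjusted p under 0.05 in limma, and for 9 of 9 enteroendocrine markers (median -0.46). At that limit 4 Paneth, 3 enteroendocrine and 2 enterocyte markers were lower, and 4 neuron and glia markers and 1 stromal marker were higher. Groups did not overlap for 1 enterocyte and 1 cycling crypt marker either. Goblet cell markers had lower means in 5 of 7 (median -0.11), immune markers in 2 of 9 (median 0.16) and tuft cell markers in 2 of 5 (median 0.01). When the smooth muscle score entered the fit, the Ugt2b35 log2 fold change was -0.99 (limma adjusted p = 0.997), and with the enterocyte score it was -1.30 (limma adjusted p = 0.741). In pieces of whole tissue, fewer enterocytes and less RNA per enterocyte cannot be told apart. Of 7 hepatocyte markers, from a tissue rich in these enzymes, 5 lay below the filter for testing, and Cyp7a1 had at most 2.15 normalized counts. Alb reached 75.3 in a water library and 9.61 in TDCA, and Cyp2e1 ran from 60.2 to 396 in water and from 36.8 to 1516 in TDCA. The summed level of the 7 was 87.0 to 432 in water and 46.4 to 1546 in TDCA, highest in TDCA 3, and the part of liver RNA in these results was not tested. Long genes also ran higher in TDCA libraries: the Spearman correlation of level with exon length across 17401 genes was -0.09 ± 0.04 in water and 0.05 ± 0.07 in TDCA (SD, n = 5 each, exact permutation p = 0.0159). The tested conjugating enzymes are short, with a median exon length of 2303 bases against 3918 for all tested genes, and the part of length in their fold changes was not tested.

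Genes tied to the same reactions, directly or loosely, were read from 7 lists with 84 genes, 77 of them tested. limma called 0 of the 77. Fitted values were lower with TDCA for 57 and higher for 20, with a median of -0.14, and 11 were lower and 2 higher at an unadjusted p under 0.05. Over all genes tested, 52.1% were lower, and 5.01% were lower and 5.95% higher at that limit. Of 10 genes listed around UDP-glucuronic acid, not all of which supply it, 6 were lower and 4 higher (median -0.12). Ugdh, which makes UDP-glucuronic acid from UDP-glucose, averaged 6871 ± 2898 in water and 4019.9 ± 1165 in TDCA (log2 fold change -0.72, SE 0.28, limma adjusted p = 0.448), and Hk1, a hexokinase, had a log2 fold change of 0.41. Pgm1, a phosphoglucomutase and the gene of this list with the smallest p, stood at -0.66 (SE 0.23, limma adjusted p = 0.448). Of 11 tested genes for PAPS supply and sulfate transport, 10 were lower (median -0.08). The anion exchanger gene Slc26a6 stood at -0.35, Bpnt1, a phosphatase that clears the spent cofactor, at -0.49, and Tpst1, which sulfates tyrosines of proteins, at 0.37.

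Of 10 transporters that export conjugates, 8 were lower (median -0.14), and Abcc2, an apical exporter of glucuronides, had a log2 fold change of -0.71 (SE 0.40), with the transporter genes Abcc6 at -0.32 and Abcc4 at -0.21. A further list held a glucuronidase, sulfatases, factors that modify sulfatases and carboxylesterases, not all of which remove glucuronides or sulfates. Of its 11 tested genes, 7 were lower, with a median of 0.00. Ces2c, a carboxylesterase with the smallest p of the list, averaged 6347 ± 544 in water and 4609 ± 1788 in TDCA (SD, n = 5 each), a log2 fold change of -0.54 (SE 0.22, limma adjusted p = 0.448). Gusb, the lysosomal glucuronidase, stood at 0.22 and the sulfatase gene Arsj at 0.37. Of 14 regulators of these enzymes, 11 were lower (median -0.20), with the vitamin D receptor Vdr at -0.37, the intestinal factor Cdx2 at -0.43 and the fatty acid receptor Ppara at -0.44. Of 18 tested genes used as readouts of xenobiotic receptors and of NRF2, 14 were lower, with a median of -0.47. In this list the authors' deposited table calls 2 of the 16 genes with an adjusted p, against 0.181% of all genes. They are Gstm3 with a log2 fold change in limma of -3.24 (authors' adjusted p = 0.00363) and Nqo1, a quinone reductase, at -1.53 (authors' adjusted p = 0.0063). Gsta1, another glutathione transferase, stood at -2.10 in limma and was not called in that table (authors' adjusted p = 0.0942). Of 3 tested glycosyltransferases that use UDP-glucose for other ends, Uggt1 stood at -0.18, Ugcg at 0.02 and Uggt2 at 0.44. Beside these medians that of the 11 tested Ugt genes was -0.87, and the difference was not tested.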

How the data were processed

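Total RNA of the distal ileum was sequenced from 10 mice with a kit that depletes ribosomal RNA, per the labels' protocols. DESeq2 1.28.0, MultiQC 1.9 and build GRCm39 are named in the submitters' processing notes. The sources used here do not state the aligner, the counter or its treatment of strand and shared reads. The authors deposited normalized counts, treated here as a signal: reads divided by a size factor per library. Within a tolerance of 1e-04, 100% of the values were whole multiples of the value of 1 read, so reads were recovered, 27349003 to 44342245 per library. The authors' deposited comparison table gives log2 fold changes, a score (the Wald statistic) and p-values.

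Of 42989 genes, the 17507 with at least 10 normalized counts in at least 5 libraries were tested. The test was limma-trend with robust moderation in limma 3.58.1 under R 4.3.3, on log2 values after a pseudocount of 1 was added, two-sided. Its p-values were adjusted by Benjamini and Hochberg's method across all tested genes, at a threshold of 0.05. Fold changes on that scale understate the change of low genes. Alternatives were edgeR 4.0.16, DESeq2 1.42.0 and limma-voom on recovered reads, other pseudocounts, filters and scalings, the replicate number as a block, marker scores as covariates, and fits without libraries. DESeq2 fits without libraries were added after the data had been seen. Counts were also simulated for the comparison of TDCA with water, 17265 genes in all. In them limma recovered 73% of the genes given a 2-fold change and 95% of those given a 4-fold change. These shares describe the simulated counts only. Whether they carry over to the real libraries, or to genes with low counts, was not tested. The correlation of deviations between same-numbered libraries of the groups ran from -0.15 to 0.17. These are the running numbers of the sample descriptions, and the sample titles carry other numbers. Such correlations cannot show whether the mice were paired, and pairing by the title numbers was not tested.

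Members, lists and the choice of Ugt2b35 were made with earlier results of these data known. The text names all members, the 5 genes most like Ugt2b35, and of each pathway list the 3 genes with the smallest p. Exon lengths and open reading frames came from GENCODE M21 and promoters from RefSeq (GRCm38.p6, 33 of 42 members matched), both on an older build than the counts, and the coordinates printed are of that older build. Floors cover counting error only.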

Additional observations from a re-analysis of the deposited data

Results flagged for a closer look

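Each group of 5 libraries was examined for a library far from the rest, in 40 groups of values (20 genes in water and in TDCA), of which 4 held one. Chance alone flags about 5% of such groups. Sult1d1 had 12219.7 normalized counts in water 1, against 6789 in the nearest water library. Ugt2b5 had 1220.4 in water 1, against 625 in the nearest water library. Ugt2a3 had 1857 in TDCA 2, against 563 in the nearest TDCA library. Sult2b1 had 1022 in TDCA 5, against 1602 in the nearest TDCA library. Both values above their water groups came from water 1.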

How the results depend on the processing

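Of 692 fold changes recomputed for the 20 genes under up to 35 settings, 647 kept their direction and their side of the threshold, 32 changed sign and 13 newly passed. The sign held throughout for 14 genes, among them Ugt2b35, Ugt2b36, Ugt2b5, Ugt2b34 and all tested Ugt1a genes except Ugt1a6a. DESeq2 called 25 genes and 1 member, Ugt2b35 (log2 fold change -1.75), where limma called 0 in every fit listed here. With single libraries left out, DESeq2 called 11 to 241 genes, the most without water 2, and 1 or 2 members, the second being Ugt2b36. The range over limma and DESeq2 fits together was 0 to 241 genes and 0 to 2 members, and without both water 1 and TDCA 5 DESeq2 called 0. That last fit adjusted over 41999 genes, more than the DESeq2 fits without a single library. On the simulated counts DESeq2 made 37 false calls and limma 7, and the cause of the different calls was not tested. Members whose groups did not overlap numbered 0 to 4 with single libraries left out, with 4 without water 2, 3 without TDCA 3 and 1 each without water 3, TDCA 1 or TDCA 4. With a library fewer, the ranges of any gene lie apart more readily. The share over all genes was not computed for these fits, so the counts are no result about the members.

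For Ugt2b35, limma gave -1.53 under TMM, -1.51 under quantile normalization and -1.81 to -1.22 with single libraries left out, and limma and DESeq2 together gave -1.95 to -1.22. Its ratio to Ugt2b34 passed under quantile normalization, with a difference of -1.22 (exact permutation, adjusted p = 0.0317). With single libraries left out the difference ran from -1.35 to -0.98 for Ugt2b34, from -0.64 to -0.38 for Ugt2b36, from -0.75 to -0.45 for Ugt2b5 and from -0.72 to 0.68 for Ugt2a3. Among these fits, the 3 that passed did so only without water 2. With a library left out the smallest possible p is larger, and no pair could pass alone after adjustment over the pairs. Failure to pass in the other fits therefore decides little.

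Signs changed as follows, and the cause was not tested. Without both water 1 and TDCA 5, limma gave 0.024 for Sult1b1, -0.20 for Sult4a1 and 0.37 for Sult6b2, and DESeq2 gave 0.051, -0.21 and 0.83 for these and 0.37 for Ugt2a3. With the smooth muscle score the values were 0.073 for Sult1b1, -0.21 for Sult4a1, 0.70 for Sult6b2 and 0.062 for Ugt1a6a. With the enterocyte score they were 0.036 for Sult1b1, -0.0086 for Sult4a1, 0.055 for Sult6b2 and 0.049 for Ugt2a3. For Sult1c2, edgeR gave 0.044 and DESeq2 0.032. With single libraries left out, Sult1c2 ran from -0.64 to 0.31, Sult6b2 from -0.70 to 0.71 and Ugt2a3 from -2.55 to 0.079.

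With the replicate number as a block, limma called 0 genes (1582 at an unadjusted p under 0.05), and Ugt2b35 kept -1.53 (limma adjusted p = 0.544). The ratio differences under the block were -1.16, -0.50, -0.58 and -0.19 against Ugt2b34, Ugt2b36, Ugt2b5 and Ugt2a3. Their test flipped the signs of 5 within-number differences, which cannot give a p under the threshold. That none passed was therefore fixed in advance and decides nothing. Only water 5 among the 5 water libraries correlated best with its own number. Depth limits statements on the 22 untested genes.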

Other observations

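Ugt2a3 was looked at further after its spread had been seen. Among genes averaging 50 normalized counts or more, Cyp2b10, a cytochrome P450 that oxidizes drugs, had the log2 level most like it over the 10 libraries (Pearson r = 0.988, Spearman rho = 1), as a description of a gene picked for its likeness. Cyp2b10 had 1865, 85.2, 116, 1111 and 70.3 normalized counts in water 1 to 5 and 21.0, 1705, 662, 44.6 and 34.6 in TDCA 1 to 5. The same mice were high for both genes in both groups: water 1, water 4 and TDCA 2, with TDCA 3 next. The next nearest were Dhrs1, a short-chain dehydrogenase (r = 0.988), Gpr155 (r = 0.987), Slc25a45, a mitochondrial carrier (r = 0.984), and Efr3b (r = 0.982). The labels name nothing that sets these mice apart.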
